A study of Homo sapiens with 12 samples.

Results

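The 10 genes described here encode the subunits of the transcription factor AP-1 and the small MAF proteins, and were taken from the count table by their symbols. They are JUN, JUNB and JUND of the JUN family, FOS, FOSB, FOSL1 and FOSL2 of the FOS family, and MAFF, MAFG and MAFK of the small MAF family. All 10 were found among the 53712 named genes of the table, and all 10 passed the filter on low counts that left 17228 genes for testing. They were measured in H9 cells, an established line of human embryonic stem cells kept in RSeT medium, which the series describes as holding them in a naive state. Each of the 3 groups had 4 libraries, numbered 1 to 4. The ASO-L1 group had received antisense oligonucleotides against LINE1 (L1), a family of mobile elements, the SO-L1 group the sense oligonucleotides to L1, and the ASO-Ctr group antisense oligonucleotides without an intended target. The dose was 25 nM with a lipid reagent in all groups, and all groups were then kept with 10 nM DZNep, which interferes with histone methylation, and 5 nM TSA, an inhibitor of histone deacetylases. Trans-ISRIB at 0.7 µM, emricasan at 5 µM and Y-27632 at 10 µM were present in all groups up to 24 h, and the unsorted cells were harvested at 48 h. Whether same-group libraries came from separate cultures is not said in the labels, so that the p-values measure the spread between these libraries. L1 RNA itself was not analysed here.

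JUN proteins dimerise with each other, with FOS proteins and with some ATF proteins, and these dimers bind TPA response elements (TREs) and cAMP response elements (CREs). FOS proteins do not form stable dimers with each other and need a partner. Transcription of FOS, FOSB, JUN and JUNB is known to respond within minutes to growth factors and to stress, as do other immediate early genes. Small MAF proteins lack a transactivation domain: as homodimers they repress, and with the CNC proteins, such as NFE2L2 (NRF2), they bind antioxidant response elements.

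Short stretches of the members' promoters are shown first, because the CRE and TRE are the sites through which AP-1 and ATF dimers are known to act on FOS and JUN themselves. RefSeq promoters of GRCh38.p14 were matched for 8 of the 10 members by symbol, FOSL1 and MAFK having none in the table used, and the 250 bases before each start were searched on both strands. The full CRE (TGACGTCA) was found in JUND and in MAFF, and in 1.65% of the 35116 promoters of the table. Its core TGACGT, which is also part of each full CRE, was found in 5 of the 8 genes (FOS, FOSB, FOSL2, JUND and MAFF) and in 7.1% of all promoters. TGACATCA, a TRE-like site known from JUN, was found in JUN alone among the members and in 2.37% of all promoters. The TRE TGACTCA, in 4.2% of all promoters, was in none of the member windows, and JUNB and MAFG held none of these sites. The motifs were chosen with the member sequences known, and a match is a description of letters and not a site of binding. The 30 bases around each match read as follows, with the motif in capitals and the strand of the gene written 5′ to 3′; the proximal match of JUND is the core on the other strand and so reads ACGTCA.
FOS, chr14:75278752-75278781 (+): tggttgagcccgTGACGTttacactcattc
FOSB, chr19:45467924-45467953 (+): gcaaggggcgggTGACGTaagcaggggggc
FOSL2, chr2:28392780-28392809 (+): ggagtctggggtTGACGTgagtgaatccac
MAFF, chr22:38201929-38201958 (+): ggccgggtcggTGACGTCAccgcatgactg
JUND, distal match, chr19:18281804-18281833 (-): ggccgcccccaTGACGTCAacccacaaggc
JUND, proximal match, chr19:18281692-18281721 (-): tgcaaatgagcgACGTCAcccgcacccaat
JUN, chr1:58784096-58784125 (-): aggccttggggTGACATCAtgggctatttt
MAFF has a further start downstream in the table, before which no match was found. In FOS, FOSB, FOSL2 and MAFF the CRE core or full CRE, and in JUN TGACATCA, began between 54 and 67 bases before the start. In JUND the matches began 200 and 87 bases before it. The share of all promoters with a match at these distances was not counted. FOS, FOSB and JUNB also held the letters TATAAA, which are somewhere in the 250 bases of 10.7% of all promoters. In these genes they began at most 33 bases before the start, and the share of all promoters with the letters that near was not counted.

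The libraries held between 20367989 and 32180891 counts. Within each group, libraries 1 and 2 stood apart from libraries 3 and 4: of the 17228 genes, 35.1% differed between these sets in the ASO-Ctr libraries alone. The labels do not say what the numbers mark, and each result on the members is therefore also given within the sets. Fold changes are from edgeR's quasi-likelihood test, in which a gene was called at an adjusted p under 0.05, and levels are CPM, counts scaled to a fixed total by effective library size. Pluripotency markers were high in all libraries: the 10 genes of the list summed to between 8695 and 9286 CPM in ASO-L1, between 9870 and 10345 in SO-L1 and between 9962 and 10752 in ASO-Ctr. In ASO-L1, 5 of 10 were called lower than in ASO-Ctr, or all 10 with the replicate block. Of all tested genes 10.7% were called lower, and 22.5% with the block. The falls were small, with a list median of -0.18 on the log2 scale and the largest, DNMT3B, at -0.34. LIN28A, 1 of the 5, was not called by edgeR without ASO-Ctr library 2 (adjusted p = 0.0555) or ASO-L1 library 3 or 4 (0.0583 and 0.0657). Some markers of fibroblasts and feeders, of trophectoderm and amnion and of mesendoderm moved with the ASO-L1 group and are given with the related genes.

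The comparison of ASO-L1 with ASO-Ctr addresses what follows in these cells when L1 RNA is targeted. All 10 members had a higher mean in ASO-L1, and 9 of 10 were called higher, where 11.6% of all tested genes were called higher and 10.7% lower. None of the 10 was called lower. FOS was the member not called (adjusted p = 0.0702). With the library number as a replicate block all 10 were called higher, against a background of 22.5%. The median log2 fold change was 0.55 over the members and 0.00 over all tested genes. FOSL2, MAFF, JUN and FOSB, 4 of 10, were called with at least a 2-fold rise, which was so for 2.21% of all tested genes. In 9 of the 10 genes all 4 ASO-L1 libraries were above all 4 ASO-Ctr libraries, as they were for 13.3% of tested genes, and within libraries 1 and 2 and within libraries 3 and 4 this held for all 10, against 22.3%. Since the cells were sequenced in bulk, more cells with a transcript and more RNA per cell cannot be told apart.

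**Figure D1:**
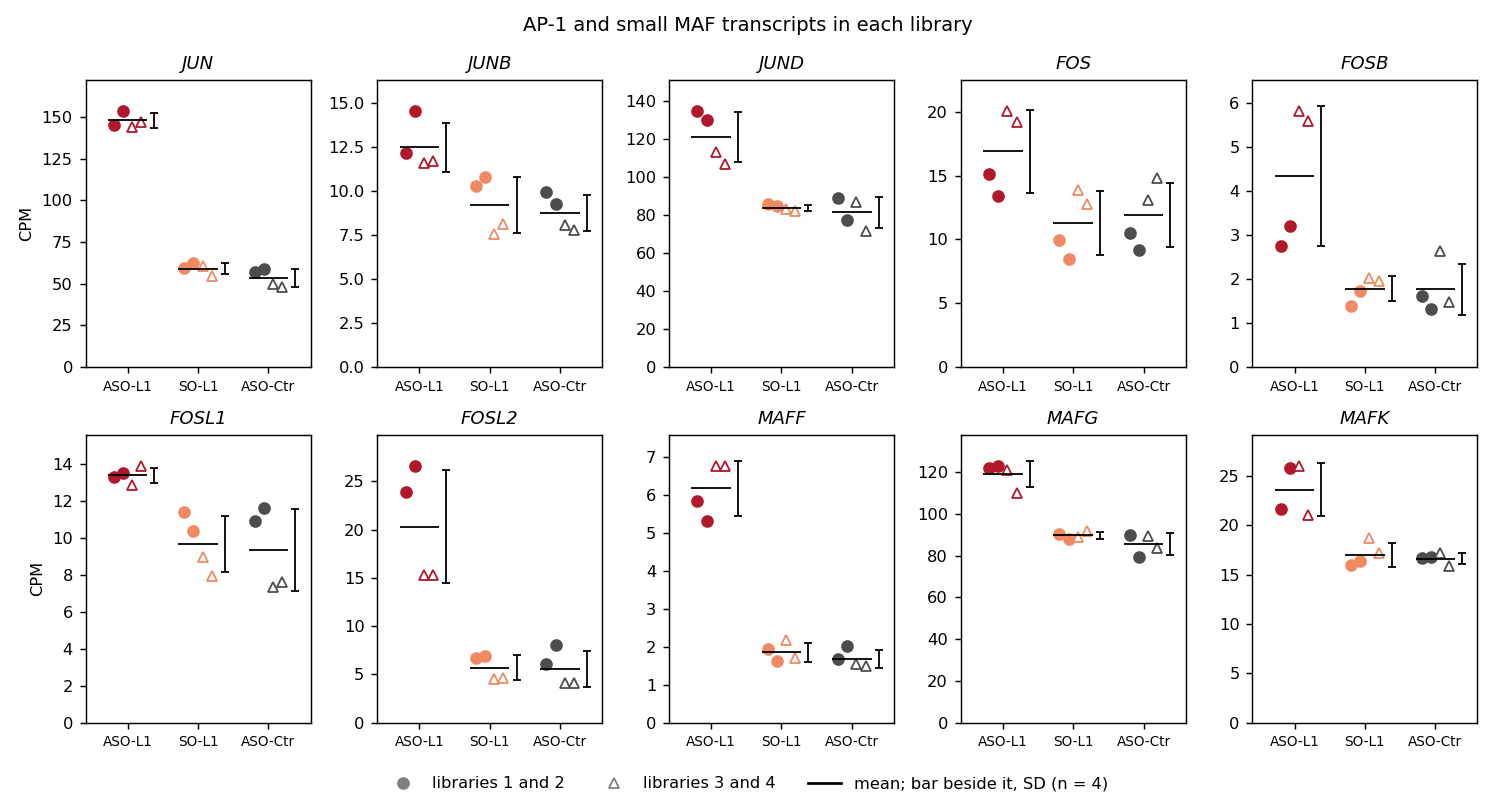
CPM (y axis, linear and from 0) of the 10 members in each of the 12 libraries, by oligo group. Filled circles are libraries 1 and 2, open triangles libraries 3 and 4, lines the means and bars the SD (n = 4); FOS, whose ASO-L1 libraries reach down to 13.4 CPM while the highest ASO-Ctr library is at 14.8, is the member whose groups overlap.

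JUN, the founding AP-1 subunit and a strong activator, had 145, 154, 144 and 147 CPM in ASO-L1 libraries 1 to 4, 59.4, 62.2, 60.5 and 54.5 in SO-L1, and 56.9, 58.9, 50.1 and 48.1 in ASO-Ctr. The ASO-L1 libraries lay within a narrow band that was well above all others. The rise over ASO-Ctr was 1.47 ± 0.07 on the log2 scale (SE), or 2.76-fold (adjusted p = 2.61e-08), and that over SO-L1 was 1.32 ± 0.07 (adjusted p = 1.10e-07).

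JUND, the subunit that is known as the most constantly expressed of the family, had 135, 130, 113 and 107 CPM in ASO-L1, 85.6, 84.6, 83.3 and 82.1 in SO-L1, and 89.2, 77.4, 87.1 and 71.8 in ASO-Ctr. All ASO-L1 libraries were above the others, libraries 3 and 4 by less than libraries 1 and 2. It rose 1.49-fold over ASO-Ctr (log2 change 0.58 ± 0.08, adjusted p = 2.33e-04) and 1.45-fold over SO-L1 (0.53 ± 0.08, adjusted p = 5.09e-04).

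JUNB, which can restrain JUN in dimers with it, had 12.2, 14.6, 11.6 and 11.7 CPM in ASO-L1, 10.3, 10.8, 7.55 and 8.14 in SO-L1, and 9.94, 9.29, 8.08 and 7.77 in ASO-Ctr. The groups did not overlap, although the lowest ASO-L1 library and the highest SO-L1 library were close. On the log2 scale it was higher than in ASO-Ctr by 0.52 ± 0.13 (adjusted p = 0.0110) and than in SO-L1 by 0.45 ± 0.13 (adjusted p = 0.0241). The call against SO-L1 was lost without ASO-L1 library 1 or 2 (adjusted p = 0.0509 and 0.0861) and without SO-L1 library 3 or 4 (adjusted p = 0.0790 and 0.0688).

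FOS, the partner with which JUN forms the classical AP-1 dimer, had 15.1, 13.4, 20.1 and 19.2 CPM in ASO-L1, 9.93, 8.50, 13.9 and 12.8 in SO-L1, and 10.5, 9.19, 13.1 and 14.8 in ASO-Ctr. In every group libraries 3 and 4 were the high ones, so that the pooled groups overlapped while the sets did not. The log2 difference from ASO-Ctr was 0.51 ± 0.19 (edgeR adjusted p = 0.0702), higher in 4 of 4 same-number pairs, and 0.50 ± 0.08 in libraries 3 and 4 against 0.54 ± 0.10 in libraries 1 and 2. It was called with the replicate block (0.51 ± 0.06, adjusted p = 3.04e-08) and within either set (adjusted p = 4.27e-07 in libraries 3 and 4 and 8.40e-05 in libraries 1 and 2). DESeq2 called it too (adjusted p = 0.0406), as did the fit without ASO-Ctr library 4 (0.0418) or ASO-L1 library 2 (0.0425). Against SO-L1 it passed (0.58 ± 0.19, adjusted p = 0.0455) but not in limma-voom (0.0512), with no filter on low counts (0.120), or without any 1 of 8 libraries: ASO-L1 1, 3 or 4 (0.0542, 0.126 and 0.109), SO-L1 1, 2 or 4 (0.111, 0.124 and 0.0529) and ASO-Ctr 1 or 3 (0.0538 and 0.0534).

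FOSB, an inducible subunit with a transactivation domain, was the lowest of the FOS family, also per length, with 28 to 168 counts a library. It had 2.76, 3.20, 5.84 and 5.59 CPM in ASO-L1, 1.38, 1.74, 2.03 and 1.95 in SO-L1, and 1.62, 1.33, 2.63 and 1.49 in ASO-Ctr. The lowest ASO-L1 library was just above the highest ASO-Ctr library. It rose 2.46-fold over ASO-Ctr (1.30 ± 0.28, adjusted p = 0.00459) and 2.42-fold over SO-L1 (1.28 ± 0.28, adjusted p = 0.00583).

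FOSL1 (FRA-1), which lacks the transactivation domain of FOS, had 13.3, 13.5, 12.9 and 13.9 CPM in ASO-L1, 11.4, 10.4, 8.97 and 7.93 in SO-L1, and 10.9, 11.6, 7.32 and 7.60 in ASO-Ctr. ASO-L1 was even over the 4 libraries, whereas the other groups were lower in libraries 3 and 4. The rise over ASO-Ctr was 0.52 ± 0.15 on the log2 scale (adjusted p = 0.0242). That call was lost without ASO-Ctr library 3 or 4 (adjusted p = 0.0750 and 0.0714) and without ASO-L1 library 1, 2 or 4 (0.0558, 0.0573 and 0.0609). Against SO-L1 it was 0.48 ± 0.15 (adjusted p = 0.0392), and lost without any ASO-L1 library (0.0812, 0.0832, 0.0646 and 0.0897 without libraries 1 to 4) or without SO-L1 library 2, 3 or 4 (0.0582, 0.102 and 0.106).

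FOSL2 (FRA-2), the other subunit without that domain, had the largest fold change of the members in both comparisons with ASO-L1, close to that of MAFF. It had 23.9, 26.6, 15.3 and 15.3 CPM in ASO-L1, 6.72, 6.93, 4.47 and 4.62 in SO-L1, and 6.05, 7.99, 4.06 and 4.05 in ASO-Ctr. Libraries 3 and 4 were lower than 1 and 2 in all groups, and the ASO-L1 libraries were still all far above the rest. It rose 3.65-fold over ASO-Ctr (1.87 ± 0.26, adjusted p = 2.29e-04) and 3.59-fold over SO-L1 (1.84 ± 0.26, adjusted p = 2.94e-04), and within the sets by 1.92 ± 0.11 in libraries 3 and 4 and 1.82 ± 0.10 in libraries 1 and 2.

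MAFF, the inducible small MAF, had 5.83, 5.31, 6.75 and 6.74 CPM in ASO-L1, 1.93, 1.61, 2.17 and 1.70 in SO-L1, and 1.67, 2.01, 1.55 and 1.49 in ASO-Ctr. Every ASO-L1 library was above all other libraries. It rose 3.63-fold over ASO-Ctr (1.86 ± 0.14, adjusted p = 2.09e-06) and 3.30-fold over SO-L1 (1.72 ± 0.14, adjusted p = 4.46e-06).

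MAFG, the small MAF with the highest level here, also per length, had 122, 123, 121 and 110 CPM in ASO-L1, 90.3, 88.2, 88.9 and 91.8 in SO-L1, and 90.0, 79.3, 89.4 and 83.7 in ASO-Ctr. The ASO-L1 libraries were apart from the others by more than the spread within any group. The rise was 1.39-fold over ASO-Ctr (0.47 ± 0.05, adjusted p = 3.14e-05) and 1.32-fold over SO-L1 (0.40 ± 0.05, adjusted p = 1.29e-04). In GENCODE v29, 105 bases of its exons also belong to SIRT7 on the same strand, a gene that rose by 0.55 (adjusted p = 2.88e-05). Whether and for which gene reads of the shared bases were counted is not given in the sources used here.

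MAFK, the third small MAF, had 21.6, 25.8, 26.0 and 21.0 CPM in ASO-L1, 16.0, 16.4, 18.7 and 17.2 in SO-L1, and 16.7, 16.8, 17.2 and 15.9 in ASO-Ctr. The groups did not overlap. On the log2 scale it was higher than in ASO-Ctr by 0.51 ± 0.08 (adjusted p = 7.37e-04) and than in SO-L1 by 0.47 ± 0.08 (adjusted p = 0.00140). Genes on the opposite strand share 809 exon bases with MAFK (TMEM184A, at 1.04 CPM in ASO-L1 and 0.822 in ASO-Ctr) and 259 with JUNB (HOOK2, at 57.9 CPM in ASO-L1 and 59.8 in ASO-Ctr). The libraries were stranded, but the strand setting of the counting is not given in the sources used here. HOOK2 had a log2 change of -0.05 and TMEM184A of 0.34, neither called (adjusted p = 0.765 and 0.323).

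The comparison of ASO-L1 with SO-L1, which shares the ASO-L1 libraries with the first, sets the antisense oligonucleotides against the sense ones. Here 10 of 10 members were called higher and none lower, against 10.7% of tested genes called higher and 9.64% lower. The median log2 fold change was 0.56 over the members and 0.00 over all genes, and FOS was again the gene whose pooled groups overlapped. The share of all tested genes without overlap was not counted for this comparison. The authors' deposited table for the same comparison lists all 10 members with an adjusted p under 0.05, with log2 fold changes from 0.40 for MAFG to 1.83 for FOSL2. In the authors' deposited batch-corrected log2 values each ASO-L1 library was above all SO-L1 and ASO-Ctr libraries for all 10 members, FOS included (4.01 to 4.11 in ASO-L1, 3.43 to 3.56 in SO-L1 and 3.46 to 3.65 in ASO-Ctr). How many of all genes passed, or lay without overlap, in these deposited values was not counted. The batches corrected for are not named, so that these values are not a separate test of FOS.

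**Figure D2:**
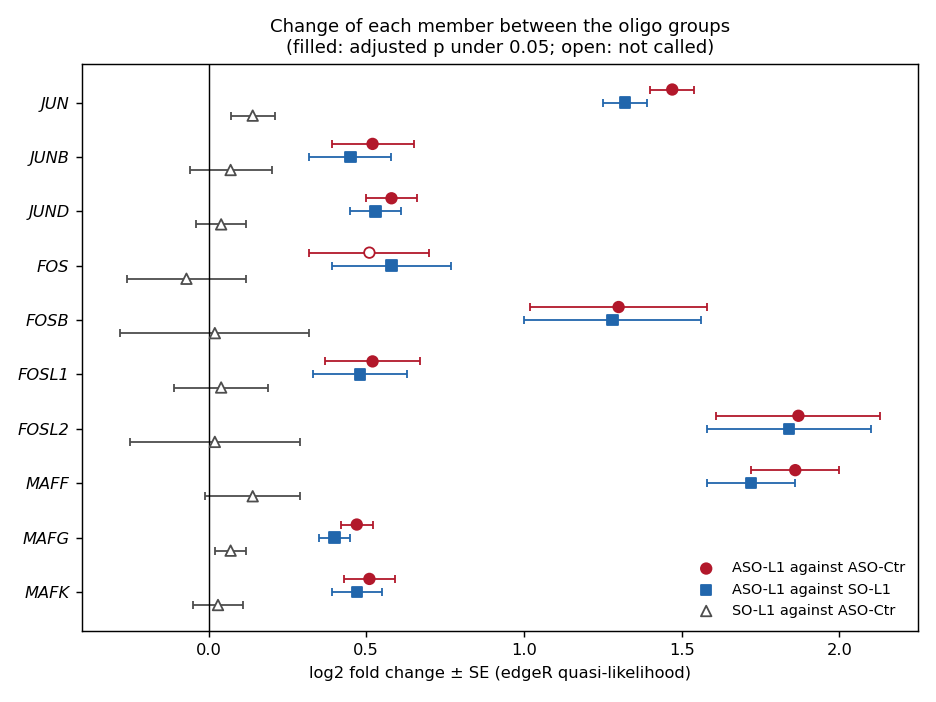
Log2 fold change (x axis) with its SE for each member in the 3 comparisons, with filled symbols for an adjusted p under 0.05 in edgeR and open ones for the rest. Both comparisons with ASO-L1 lie to the right of 0 for all members, from 0.40 (MAFG) to 1.87 (FOSL2), and SO-L1 against ASO-Ctr lies between -0.07 and 0.14.

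SO-L1 against ASO-Ctr asks what an L1 oligonucleotide of the sense strand does. None of the 10 members was called in either direction by edgeR (adjusted p = 1 for each), nor by DESeq2 or limma-voom, and 0.0290% of all tested genes were. By the same edgeR fit, 1 member, JUN, had an unadjusted p under 0.05, with a log2 difference of 0.14 ± 0.07, and 527 of all tested genes did. JUN was higher in 4 of 4 same-number pairs, and it was called in libraries 3 and 4 alone (0.23 ± 0.05, adjusted p = 0.00587) but not with the replicate block (0.15 ± 0.04, adjusted p = 0.0697) or in libraries 1 and 2 (0.07 ± 0.05). MAFF was at 0.14 ± 0.15, JUNB and MAFG at 0.07 ± 0.13 and 0.07 ± 0.05, and FOS at -0.07 ± 0.19. FOSB at 0.02 ± 0.30 and FOSL2 at 0.02 ± 0.27 had the widest errors, so that this fit would not have shown a change of that size. With the replicate block FOSB was at 0.01 ± 0.18 and FOSL2 at 0.04 ± 0.09, and neither was called (edgeR adjusted p = 0.995 and 0.953).

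The members differed in what separated the library sets. Of the 10, 5 were called between libraries 3 and 4 and libraries 1 and 2 within the ASO-Ctr group, beside the 35.1% of all genes given above. FOS was higher in libraries 3 and 4 (13.9 against 9.86 CPM, log2 difference 0.51 ± 0.10, adjusted p = 4.64e-05). FOSL2 (4.05 against 7.02 CPM, -0.82 ± 0.14, adjusted p = 2.89e-06), FOSL1 (7.46 against 11.2 CPM, -0.60 ± 0.10, adjusted p = 8.71e-06) and JUN (49.1 against 57.9 CPM, -0.24 ± 0.05, adjusted p = 3.16e-04) were lower there. JUNB was also lower (-0.27 ± 0.11, adjusted p = 0.0470), a call lost without any 1 of the ASO-Ctr libraries 1 to 4 (adjusted p = 0.170, 0.0671, 0.0952 and 0.178) or without SO-L1 library 1, 2 or 4 (0.0516, 0.0514 and 0.0504), and with no filter (0.0572). Without ASO-Ctr library 4, FOSB was called higher (0.85, adjusted p = 0.0102), and without ASO-Ctr library 3, JUND was called lower (-0.22, adjusted p = 0.0125). Once the group means were removed, FOS and FOSL2 moved against each other over the 12 libraries (r = -0.96), as did FOS and JUNB (-0.91), while JUN went with FOSL1 (0.87) and JUNB with FOSL2 (0.83). These correlations describe 12 libraries that share the split by number.

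FOSL1 was the only member for which a difference of the ASO-L1 change between the sets was called: it was 0.85 ± 0.10 in libraries 3 and 4 and 0.25 ± 0.09 in libraries 1 and 2 (difference 0.60 ± 0.14, adjusted p = 0.0138), and 0.778% of all genes differed. The difference was lost without ASO-Ctr library 2, 3 or 4 (adjusted p = 0.0872, 0.115 and 0.0551) and without ASO-L1 library 2 or 4 (0.0552 and 0.0744). MAFF was at 2.15 ± 0.18 in libraries 3 and 4 and 1.57 ± 0.17 in libraries 1 and 2 (difference 0.58 ± 0.26, adjusted p = 0.439). FOSB was at 1.47 ± 0.18 and 1.04 ± 0.21 in the same order (difference 0.43 ± 0.29, adjusted p = 0.709). JUND, with 0.48 ± 0.07 in libraries 3 and 4 and 0.68 ± 0.05 in libraries 1 and 2 (-0.21 ± 0.12, adjusted p = 0.662), was called only without ASO-Ctr library 4 (-0.34, adjusted p = 0.0313).

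**Figure D3:**
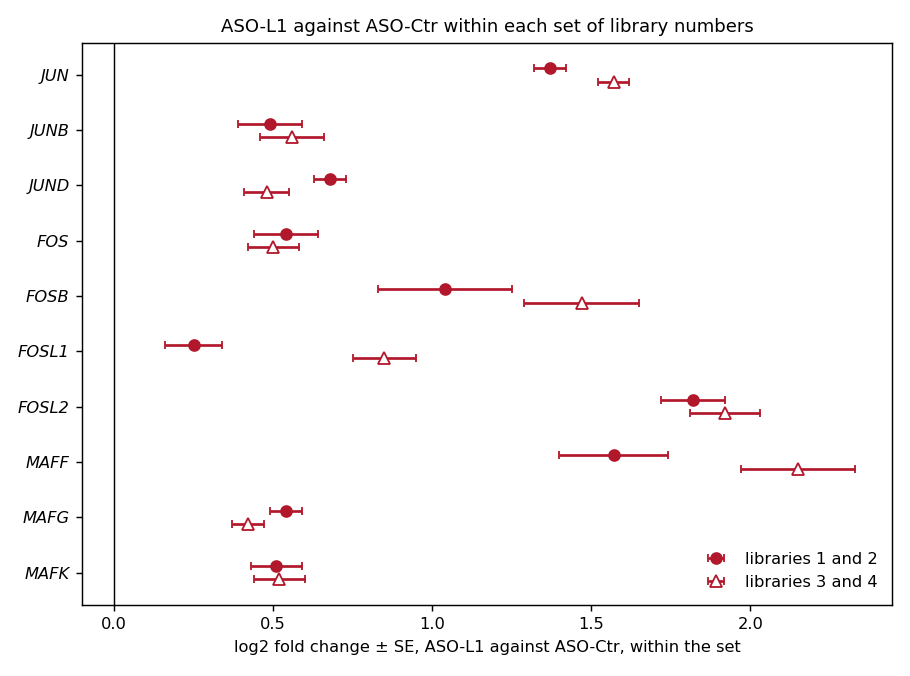
Log2 fold change of ASO-L1 against ASO-Ctr with its SE (x axis), fitted within libraries 3 and 4 (open triangles) and within libraries 1 and 2 (filled circles). All values are above 0, and FOSL1, at 0.85 and 0.25 in these sets, is the member for which the difference was called.

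To compare levels between the genes, CPM was divided by the length of all annotated exons of each gene in GENCODE v29, from 1.82 kb for JUNB to 7.16 kb for FOSL2. This annotation is of GRCh38, whereas the counts were made on hg19, and unused exons lower the value of a gene. Per kb, JUND was highest, at 65.2 ± 7.16 in ASO-L1, 45.0 ± 0.825 in SO-L1 and 43.7 ± 4.39 in ASO-Ctr (SD, n = 4 each). JUN followed in ASO-L1 at 41.7 ± 1.23, above MAFG at 22.8 ± 1.20. In SO-L1 these genes were at 16.7 ± 0.937 and 17.2 ± 0.301 CPM per kb and in ASO-Ctr at 15.1 ± 1.47 and 16.4 ± 0.974, and did not differ beyond their spread. FOSL1, JUNB, MAFK and FOS formed a middle range, from 7.11 to 5.23 in ASO-L1, from 5.12 to 3.49 in SO-L1 and from 4.96 to 3.68 in ASO-Ctr, in that order of means in every group. Library ranges of FOSL1 and JUNB overlapped in every group, as did those of MAFK and FOS, whereas JUNB was above MAFK in all ASO-L1 and all ASO-Ctr libraries. FOSL2, at 2.83 ± 0.820 in ASO-L1, 0.794 ± 0.185 in SO-L1 and 0.774 ± 0.264 in ASO-Ctr, came next. MAFF (1.10 ± 0.127, 0.330 ± 0.0444 and 0.300 ± 0.0418 in ASO-L1, SO-L1 and ASO-Ctr) and FOSB (0.783 ± 0.287, 0.320 ± 0.0520 and 0.318 ± 0.105) were lowest and overlapped.

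The make-up of each family shifted with these unequal changes. JUN made up 36.8% ± 2.28 of the JUN family's CPM per kb in ASO-L1, 25.0% ± 0.847 in SO-L1 and 23.8% ± 1.94 in ASO-Ctr, and JUND 57.2% ± 2.44, 67.5% ± 1.27 and 68.6% ± 2.43 in the same groups. The lowest JUN share of an ASO-L1 library, 34.1%, was above the highest of the SO-L1 (25.9%) and ASO-Ctr (26.3%) libraries. In the FOS family FOSL2 had 17.9% ± 5.64 in ASO-L1, 8.18% ± 1.87 in SO-L1 and 7.86% ± 2.21 in ASO-Ctr, the lowest ASO-L1 library (13%) being above the highest ASO-Ctr library (10.8%). FOSL1 remained the largest share by mean, at 44.6% ± 1.65, 52.6% ± 6.91 and 50.6% ± 8.80, with overlapping groups. In the small MAF family MAFF had 3.78% ± 0.577 in ASO-L1, 1.54% ± 0.196 in SO-L1 and 1.47% ± 0.260 in ASO-Ctr, and MAFG kept 78.1% ± 1.35, 80.6% ± 1.19 and 80.2% ± 1.08. The shares were not tested.

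**Figure D4:**
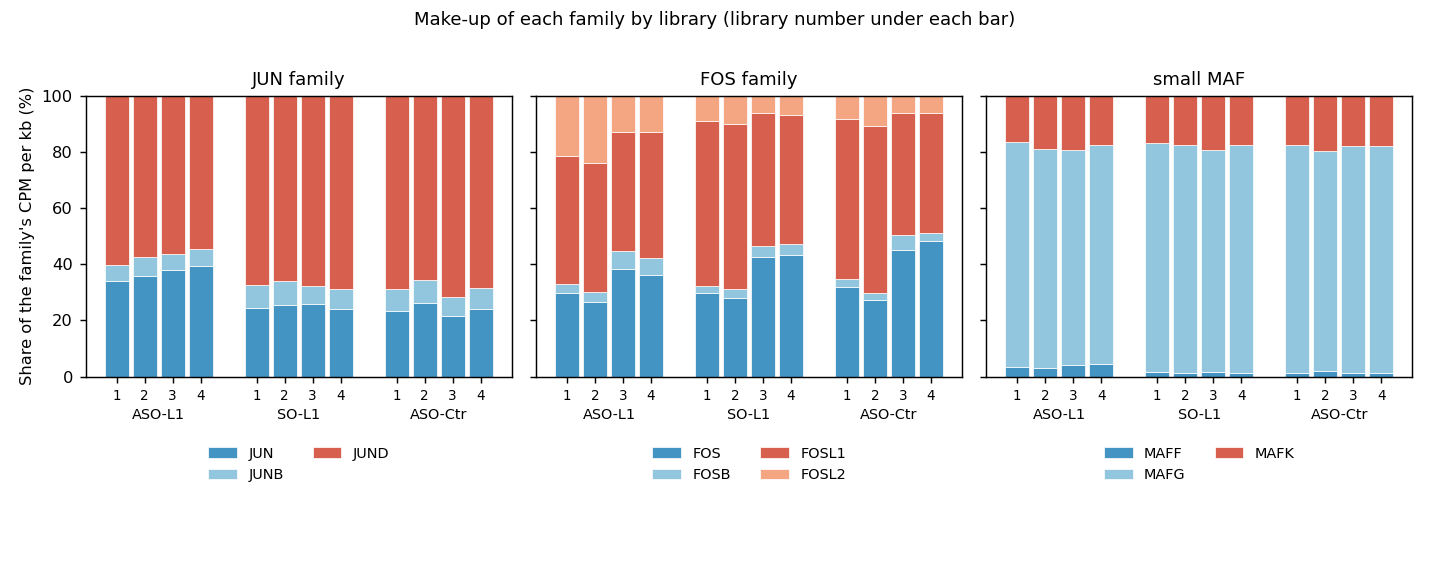
Share of each family's summed CPM per kb (y axis, percent, from 0) held by its members in each library, from ASO-L1 through SO-L1 to ASO-Ctr. The JUN share is 34.1% to 39.4% in ASO-L1, 24.1% to 25.9% in SO-L1 and 21.6% to 26.3% in ASO-Ctr; in the FOS family FOSL2 is at 13% to 23.9%, 6.22% to 10.3% and 6.00% to 10.8%.

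The genes whose log2 CPM followed each member most closely over the 12 libraries were found among 13256 other genes; these libraries share the oligo groups and the number sets. JUN was most like TMBIM1 (Pearson r = 0.998), TNFRSF12A (0.998), the receptor of the cytokine TWEAK, and RHOB (0.997), a small GTPase. MAFF was most like WHAMM (0.988), CSRNP1 (0.987) and the small heat shock gene CRYAB (0.987), and FOSL2 most like the nuclear receptor gene NR1D1 (0.990), CER1 (0.990), a secreted Nodal antagonist, and CEBPG (0.985), a partner of C/EBP and ATF proteins. For FOSB these were IER5 (0.974), an immediate early gene, SMOX (0.965) and GABRA5 (0.957), and for FOSL1 ARRDC2 (0.977), MAPKAPK5-AS1 (0.971) and GPRC5C (0.962). JUNB was most like PFKFB2 (0.982), PURB (0.980) and KIF5A (0.973), and JUND most like the kinase gene JAK1 (0.977), ORAI1 (0.973) and AHDC1 (0.973). FOS went with RCE1 (0.972), the chaperonin subunit CCT2 (0.972) and NOP56 (0.970), which changed little between the groups (log2 changes of 0.25, 0.12 and 0.29). MAFG was most like PDLIM7 (0.986), SDCCAG3 (0.982) and DNAJC27 (0.982), and MAFK most like DDX55 (0.966), TRMT1 (0.962) and TPRN (0.960). No member was among the 3 genes nearest to another member. Among the members themselves, JUN and MAFF had the highest correlation (0.98) and FOS and JUNB the lowest (0.17).

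Genes that work with AP-1 or small MAF proteins were taken as lists, first for ASO-L1 against ASO-Ctr. Their counts stand beside the 11.6% of all tested genes called higher and the 10.7% called lower, or 22.5% in each direction with the replicate block. Of 7 tested ATF, BATF and JDP partners, 3 were called higher and none lower, with a list median of 0.58; 4 were higher and 1 lower with the block. ATF3, a stress-induced partner of JUN, was at 64.1 ± 5.35 CPM in ASO-L1, 26.8 ± 2.20 in SO-L1 and 22.7 ± 0.982 in ASO-Ctr (log2 change 1.49 ± 0.07, adjusted p = 5.10e-08). CREB5 (1.29 ± 0.15, adjusted p = 5.41e-05) and BATF3 (1.16 ± 0.30, adjusted p = 0.0136) also rose. JDP2, a repressor that pairs with JUN, was at 0.58 ± 0.20 (adjusted p = 0.0546; it was called with the replicate block at 1.66e-09, by DESeq2 at 0.0263 and by limma-voom at 0.0437).

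Of 7 tested CNC and BACH partners of small MAF proteins, with KEAP1 among them, 2 were called higher and 1 lower, with a median of 0.02. NFE2, the CNC factor of blood cells, was at 4.94 ± 0.323 CPM in ASO-L1 and 2.76 ± 0.593 in ASO-Ctr (0.83 ± 0.17, adjusted p = 0.00318). NFE2L2, which activates antioxidant genes, rose by 0.31 ± 0.07 (adjusted p = 0.00737) and NFE2L3 fell by 0.23 on the log2 scale (adjusted p = 7.49e-04). NFE2L1, a factor of the proteasome response, was at 331 ± 24.9 CPM in ASO-L1 and 326 ± 31.7 in ASO-Ctr (0.02 ± 0.08, adjusted p = 0.875). The repressor gene BACH1 was at 0.13 ± 0.10 (adjusted p = 0.402; with the block, 0.00522). Large MAF proteins, unlike the small ones, carry an activation domain. Of their genes MAF fell (-0.42 ± 0.10, adjusted p = 0.00854), and NRL (0.36) and MAFA (0.04) did not pass (adjusted p = 0.177 and 0.927). MAF was at -0.22 in libraries 3 and 4 alone (adjusted p = 0.110).

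Of 24 kinases and factors that act upstream of AP-1, 3 were called higher and 5 lower, with a median of 0.04; 7 were higher and 6 lower with the block. The shares of the list called higher, and with the block those in both directions, were near those of all genes. MEF2D, a factor that binds the JUN promoter, rose by 0.52 ± 0.06 (adjusted p = 5.84e-05). The kinase genes MAP3K4 (-0.18, adjusted p = 0.00380), MAP2K6 (-0.31, adjusted p = 0.0128) and MAP2K1 (-0.41, adjusted p = 0.0237) were called lower. MAP2K1 was not called without ASO-Ctr library 1 or 2 (adjusted p = 0.0680 and 0.0761), without ASO-L1 library 3 or 4 (0.0700 and 0.0710) or with no filter (0.0889). Of 4 tested genes of ubiquitin ligases that act on the JUN protein, RFWD2, also called COP1, fell by 0.34 (adjusted p = 0.00667) and FBXW7 by 0.17 on the log2 scale (adjusted p = 0.0202). FBXW7 was not called without ASO-L1 library 3 (adjusted p = 0.0592), in libraries 1 and 2 (0.0778) or with no filter (0.155), and lay at the threshold without ASO-Ctr library 1. DET1 was at -0.34 ± 0.13 (adjusted p = 0.0905; 0.00380 with the block and 0.0332 without ASO-L1 library 3) and ITCH at 0.08 (adjusted p = 0.606).

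Of 20 tested genes often described as AP-1 targets, 12 were called higher and 1 lower, with a median of 0.49; 14 were higher and 4 lower with the block. IL11, a cytokine, was at 12.3 ± 0.944 CPM in ASO-L1, 2.23 ± 0.293 in SO-L1 and 2.32 ± 0.381 in ASO-Ctr (2.40 ± 0.13, adjusted p = 1.02e-07). The hyaluronan receptor gene CD44 (1.36 ± 0.11), the intermediate filament gene VIM (1.34 ± 0.10) and the protease gene MMP9 (1.20 ± 0.10) rose as well. A further 6 genes of the list had too few counts to test. Of 17 tested other immediate early genes 8 were called higher and none lower, with a median of 0.66; with the block 16 were higher. DUSP1, a phosphatase that switches off MAP kinases, was at 26.8 ± 1.63 CPM in ASO-L1, 8.58 ± 1.56 in SO-L1 and 8.40 ± 1.29 in ASO-Ctr (1.67 ± 0.13, adjusted p = 2.46e-06). The nuclear receptor gene NR4A1 (1.15 ± 0.11), the mRNA decay factor ZFP36 (0.76 ± 0.09) and CYR61 (1.05 ± 0.15) rose too.

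Of 25 tested antioxidant response element genes, 9 were called higher and 2 lower, with a median of 0.10; 12 were higher and 5 lower with the block. The autophagy receptor gene SQSTM1 was at 139 ± 3.19 CPM in ASO-L1, 79.7 ± 7.92 in SO-L1 and 68.6 ± 6.67 in ASO-Ctr (1.02 ± 0.08, adjusted p = 1.88e-06). OSGIN1 (1.78 ± 0.24, adjusted p = 1.63e-04) and the ferritin gene FTL (0.54 ± 0.07, adjusted p = 1.03e-04) rose, and ME1, malic enzyme, fell by 0.86 on the log2 scale (adjusted p = 1.92e-05). HMOX1, heme oxygenase, which BACH1 represses with small MAF proteins, was at 0.82 ± 0.24 (adjusted p = 0.0294), a call lost without ASO-Ctr library 1 or 2 (0.0815 and 0.0849), without ASO-L1 library 3 or 4 (0.0833 and 0.0703) and with no filter (0.122). NQO1, the classical NRF2 target, was at 49.9 ± 3.55 CPM in ASO-L1, 50.2 ± 5.30 in SO-L1 and 46.3 ± 4.93 in ASO-Ctr (0.11 ± 0.09, adjusted p = 0.442, and 0.0344 with the block). The antisense transcript MAFG-AS1 was at 1.94 ± 0.444 CPM in ASO-L1 and 1.78 ± 0.457 in ASO-Ctr (0.13 ± 0.23, adjusted p = 0.750).

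**Figure D5:**
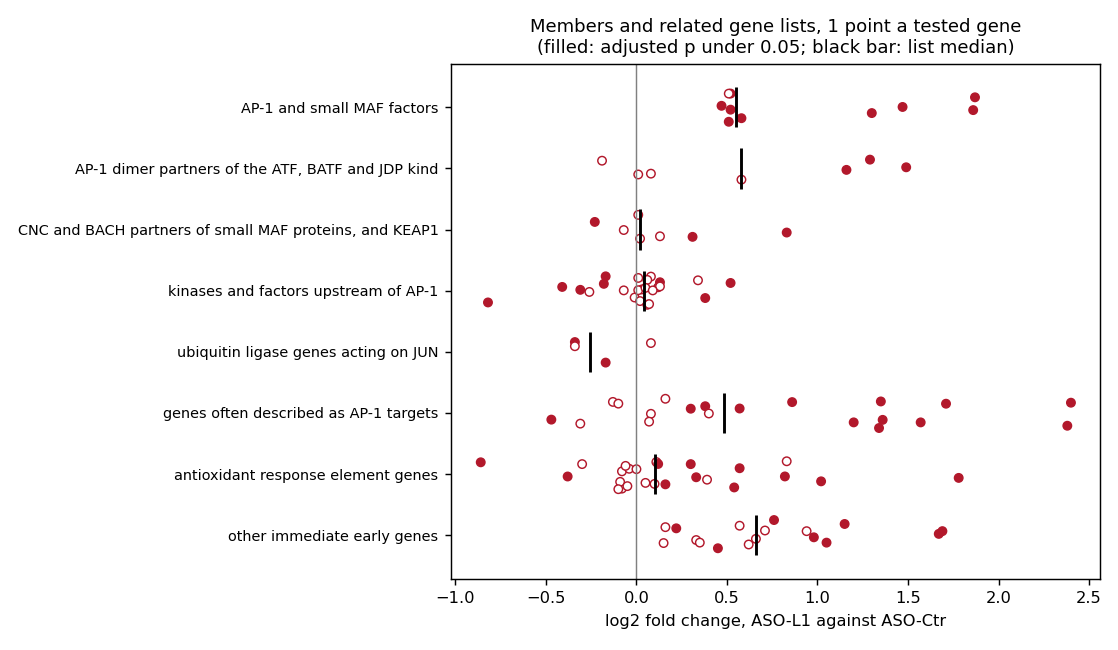
Log2 fold change of ASO-L1 against ASO-Ctr (x axis) for each tested member and each tested gene of 7 related lists, with filled points for an adjusted p under 0.05 and a black bar at each median. The members' median is 0.55, that of the immediate early genes 0.66 and that of the CNC and BACH partners 0.02.

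Against SO-L1, where 10.7% of all tested genes were called higher and 9.64% lower, the antioxidant genes were split nearly evenly, with 6 called higher and 5 lower and a median of 0.04. With the block 10 were higher and 8 lower, against 21.6% and 21.7% of all genes. HMOX1 was not called there (0.60 ± 0.24, adjusted p = 0.105). Of the other lists, the ATF, BATF and JDP partners had 3 higher and none lower (4 and 1 with the block). The CNC and BACH partners had 1 higher and 1 lower (2 and 1 with the block). The upstream kinases and factors had 3 higher and 3 lower (7 and 6 with the block). The ubiquitin ligase genes had none higher and 1 lower. The AP-1 targets had 11 higher and none lower (13 and 2 with the block), and the immediate early genes 10 higher and none lower (17 and none with the block). NFE2L2 (0.21 ± 0.07, adjusted p = 0.0563) and FBXW7 (-0.09 ± 0.05, adjusted p = 0.208) were not called against SO-L1.

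In SO-L1 against ASO-Ctr none of the genes of any of these lists was called by edgeR. With the block, 1 of 7 tested ATF, BATF and JDP partners, 1 of 20 AP-1 targets and 3 of 25 antioxidant genes were higher. In that fit 1 antioxidant gene was lower. Of all 17228 tested genes, 73 were higher and 170 lower in the same fit.

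Some markers of other cell types were called higher in the same ASO-L1 libraries as the members, and others were not. Their counts, against ASO-Ctr, stand beside the 11.6% of all tested genes called higher and the 10.7% called lower, or 22.5% in each direction with the replicate block. Of 9 tested fibroblast and feeder markers 4 were called higher and none lower (5 and 2 with the block), and the 14 genes in the table summed to 991 to 1069 CPM in ASO-L1, 636 to 756 in SO-L1 and 625 to 735 in ASO-Ctr. Among the 4, TWIST1 was at 12.4 ± 0.859 CPM in ASO-L1 and 3.25 ± 0.813 in ASO-Ctr (log2 change 1.93 ± 0.14, adjusted p = 1.65e-06). COL1A1 (0.80 ± 0.26, adjusted p = 0.0425) was not called without ASO-Ctr library 1 or 2 (0.111 and 0.115). Nor was it without ASO-L1 library 2, 3 or 4 (0.0513, 0.115 and 0.0975) or with no filter (0.158). VIM, which is also in the list of AP-1 targets, and SPARC (364 ± 43.4 CPM in ASO-L1 and 235 ± 11.8 in ASO-Ctr) held the largest amounts in ASO-L1, whereas COL1A2 was at 149 ± 11.8 CPM in ASO-L1 and 169 ± 23.8 in ASO-Ctr and POSTN at 1.80 ± 1.20 and 2.34 ± 1.33 (adjusted p = 0.272 and 0.696). FAP had 0 counts in all groups, DCN in ASO-L1 and SO-L1, and LUM in SO-L1, where 0 counts allow up to 0.0272 CPM in ASO-L1, 0.0312 in SO-L1 and 0.0302 in ASO-Ctr for counting error only. Of 8 tested trophectoderm and amnion markers 4 were higher and none lower (4 and 1 with the block), with sums over 13 genes of 941 to 999 CPM in ASO-L1, 621 to 746 in SO-L1 and 613 to 712 in ASO-Ctr, mostly from KRT8 and KRT18. GATA2 rose by 1.03 ± 0.18 (adjusted p = 0.00131). KRT7 (0.95 ± 0.27, adjusted p = 0.0242) was not called without ASO-Ctr library 1, 2 or 4 (0.0610, 0.0746 and 0.0523) or ASO-L1 library 3 or 4 (0.0807 and 0.0634). CDX2 had 0 counts in ASO-Ctr. TFAP2C was at 54.7 ± 4.34 CPM in ASO-L1 and 61.5 ± 9.93 in ASO-Ctr, and IGFBP3 at 7.74 ± 1.30 and 8.38 ± 0.584 (adjusted p = 0.381 and 0.553). Of 4 tested mesendoderm markers 3 were higher, with sums over 8 genes of 78.7 to 132 CPM in ASO-L1, 20.3 to 32.0 in SO-L1 and 19.6 to 29.6 in ASO-Ctr, mostly from CER1. CER1 was at 87.0 ± 26.3 CPM in ASO-L1 and 13.8 ± 4.65 in ASO-Ctr (2.65 ± 0.30, adjusted p = 6.75e-05). MIXL1 rose by 0.61 ± 0.11 (adjusted p = 0.00118). GATA6, low at 1.14 ± 0.368 CPM in ASO-L1 and 0.0905 ± 0.127 in ASO-Ctr, was at 3.58 ± 0.60 (adjusted p = 9.16e-04). It passed the filter on low counts only through the ASO-L1 libraries. Its call, and its place among the 3 markers called higher, are therefore not independent of that filter. The other genes of the 8 had too few counts to test. GATA4, at 0.349 ± 0.0665 CPM in ASO-L1 and 0.445 ± 0.0467 in ASO-Ctr, was not called (adjusted p = 0.497). The part of these cell types in the members' levels was not tested.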

How the data were processed

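Counts of reads per gene symbol were deposited by the authors as a raw table of 12 libraries. Trim Galore 0.4.0, TopHat2 2.0.13 and featureCounts (Subread 1.5.0) on hg19 are named in the submitters' processing notes, and poly(A) selection with a directional kit in the labels' protocols. The annotation and strand setting are not given in the sources used here. The table's name speaks of removed duplicates, and does not say of what. The unnamed row (10 counts, 3.27e-06% of all) was left out. The authors also deposited log2 normalised values called batch corrected, and a table of log2 fold changes with p-values for ASO-L1 over SO-L1; the batches are not named, and both were used only as quoted.

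The analysis used edgeR 4.0.16 (R 4.3.3): filterByExpr (least count 10, least total 15), TMM factors, a robust quasi-likelihood fit of all 12 libraries with a mean per group, and Benjamini-Hochberg adjustment over 17228 genes, two-sided. The differences between number sets came from 1 fit with a mean per group and set. The SE is the log2 fold change divided by the square root of F. Log2 CPM for correlations used a prior count of 2. Only the fit with a mean per group was tested on simulated data, for ASO-L1 against ASO-Ctr. The simulated counts had no split into number sets, and the other fits were not tested in this way. Depth was 20367989 to 32180891 counts a library; floors are 3 counts over a group.

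Same-number libraries of different groups deviated together (r from 0.45 to 0.561 over 12 pairs, across genes), as did the other number of the same set (0.455 to 0.543), against -0.53 to -0.426 between sets. The first 2 of these ranges overlapped, so the data showed the split into sets but no closer pairing by single number. The labels give no pairing either. A fit with the number as a replicate block, which also takes up the split, is given for each member whose call it changed and for some of the lists. Other alternatives were RLE size factors, no filter, DESeq2 1.42.0, limma-voom (limma 3.58.1), the 2 groups alone, each number set alone, and leaving out each library. The block and the leaving out of libraries for the differences between sets were added after seeing the data.

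Members, lists and tests were chosen with earlier results of these data known. Besides the members, the rule for named genes takes up to 4 tested genes per list by the smallest p in ASO-L1 against ASO-Ctr, a few named partners and targets (ATF3, JDP2, NFE2L1, NFE2L2, BACH1, NQO1 and HMOX1), and for each member the 3 genes of mean log2 CPM above 1 with the highest Pearson r. Not every gene it takes is printed, 1 gene of a list is not reported here, and SIRT7, TMEM184A, HOOK2, FAP, DCN, LUM, CDX2, COL1A2, POSTN, TFAP2C and IGFBP3 were named outside it.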

Additional observations from a re-analysis of the deposited data

Results flagged for a closer look

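The ASO-L1 change of FOSL1 differed between the sets of libraries: the log2 fold change in libraries 3 and 4 was larger by 0.60 than that in libraries 1 and 2 (edgeR adjusted p = 0.0138, and 0.0115 with the replicate block). In libraries 3 and 4 FOSL1 averaged 13.4 CPM in ASO-L1 and 7.46 in ASO-Ctr, and in libraries 1 and 2 it averaged 13.4 CPM in ASO-L1 and 11.2 in ASO-Ctr. No library stood apart within its group in the screen for single extreme libraries, over 30 groups of 4 values.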

How the results depend on the processing

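The members' fold changes against ASO-Ctr and SO-L1 were above 0 under every alternative run, and the calls that changed are those named above; the replicate block changed no other member's call. Counts of called genes moved most with the number sets: for ASO-L1 against ASO-Ctr from 3847 to 7747 with the replicate block, 6045 in libraries 1 and 2 and 6103 in libraries 3 and 4; for ASO-L1 against SO-L1 from 3497 to 7469, 5863 and 5861; and for SO-L1 against ASO-Ctr from 5 to 243, 124 and 201, with 52 in DESeq2 and 8 with no filter. The cause was not tested.

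In SO-L1 against ASO-Ctr 1 member, JUN, was called higher in libraries 3 and 4. Changes near 0 turned sign: JUNB -0.02 and FOSB -0.06 in libraries 3 and 4, and FOSL1 -0.06, FOSL2 -0.07, MAFF -0.08 and MAFK -0.05 in libraries 1 and 2. Leaving out 1 library gave -0.02 to 0.15 for JUNB, -0.01 to 0.09 for JUND, -0.19 to 0.05 for FOS, -0.10 to 0.28 for FOSB, -0.06 to 0.17 for FOSL1, -0.11 to 0.27 for FOSL2 and -0.01 to 0.06 for MAFK.

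Between the sets, leaving out 1 library gave 74 to 253 genes whose ASO-L1 change differed, 134 with all libraries, with 0 to 1 members higher and 0 to 1 lower, and -0.04 to 0.21 for JUNB, -0.13 to 0.07 for FOS, -0.15 to 0.25 for FOSL2 and -0.16 to 0.16 for MAFK. In the ASO-Ctr libraries it gave 1 to 2 members higher, and -0.22 to 0.07 for JUND, -0.06 to 0.13 for MAFG and -0.09 to 0.04 for MAFK. Against ASO-Ctr, MAFA was at -0.10 and MAFG-AS1 at -0.01 in libraries 3 and 4, and NFE2L1 at 0.00 in libraries 1 and 2; leaving out 1 library gave -0.12 to 0.23 for MAFA, -0.03 to 0.07 for NFE2L1 and -0.04 to 0.28 for MAFG-AS1. No RLE setting moved the median of all genes by more than 0.01.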
